A study of Mus musculus with 2 samples.

Results

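The receptors through which leukocytes bind the constant part of IgG are described here as 5 genes out of 27998 in the count tables. Fcgr1, Fcgr3 and Fcgr4 encode activating receptors, Fcgr2b encodes the inhibitory receptor, and Fcer1g encodes the common gamma chain that the activating receptors need. The genes were taken by symbol, and all 5 were found in both libraries.

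Fc gamma receptors let macrophages, monocytes and NK cells react to cells and particles coated with IgG. The activating receptors signal through the ITAM motif of the Fcer1g chain, which Src-family kinases phosphorylate and the kinase Syk then binds, and this leads to phagocytosis, cytokine release or killing. Fcgr2b carries an ITIM motif in its own tail that recruits the phosphatase Inpp5d and dampens the same pathway, so that the balance of activating receptors over Fcgr2b sets how readily a cell responds to immune complexes. Fcgr1 binds monomeric IgG with high affinity and is known to be induced by interferon gamma, whereas NK cells of the mouse are known for Fcgr3.

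RNA was counted in single CD45+ cells (leukocytes, held back on magnetic beads) from tumors that TSA cells, a mouse mammary adenocarcinoma line, formed under the skin of Balb/c mice. One group was left untreated and the other received 0.5% nicotinamide (NAM, a form of vitamin B3) in the drinking water for 10 days. Each group is 1 library made from the pooled tumors of 3 mice, so no difference has a replicate check, no test was made, and NAM and the library cannot be told apart. Unique molecular identifiers (UMIs), which stand for captured RNA molecules, numbered 29161823 over 2922 untreated cells and 32090120 over 3276 cells under NAM. There were 11 barcodes that occurred in both libraries.

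Cells were sorted into classes by UMIs of marker genes, none of them an Fc receptor gene. Macrophage-like cells had 30 or more UMIs of C1qa, C1qb and C1qc and at least 1 of Csf1r or Adgre1 (1908 untreated and 2113 NAM cells), and monocyte-like cells had 5 or more UMIs of Ly6c2, at least 1 of Plac8 and fewer than 10 of the C1q genes (151 and 162 cells). Smaller classes were Tgfbi Ccr2 myeloid cells (111 and 107), Ctsk Mmp9 myeloid cells (115 and 139), Cd209a dendritic-like cells (34 and 38), cDC1-like cells with Xcr1 or Clec9a (24 and 32), mature dendritic-like cells with genes such as Ccr7 and Fscn1 (28 and 23), NK-like cells (69 and 41) and T-cell-like cells (198 and 260). Macrophage-like cells were split further, and the subsets described are Vcam1 Dnase1l3 cells (427 and 421), interferon-high cells with Ifit genes and Rsad2 (97 and 88), proliferating cells (187 and 182) and cells of no named subset (1047 and 1199). Each class named after a cell type had at least 3 of that type's markers above their level in other cells. The Cd209a class also had Epcam, a marker from the tumor cell list, among its 10 leading genes. Ifnb1 led the interferon-high cells, and the 10 leading genes of the Tgfbi Ccr2 class held none of its own markers, so it is called by its gate genes alone. The remaining 284 untreated and 361 NAM cells fell in no class.

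In GENCODE vM21 (GRCm38), Fcgr2b lies at chr1:170958617-170976547 on the minus strand, Fcgr4 at chr1:171018920-171029761 on the plus strand and Fcgr3 at chr1:171051174-171064935 on the minus strand, within 106319 bases. Fcer1g follows at chr1:171229572-171234365 on the minus strand, and Fcgr1 lies apart at chr3:96282909-96293969 on the minus strand. All 5 are protein-coding. An antisense gene, Gm38204, overlaps Fcgr2b on the opposite strand. Fcgr2b and Fcgr3 are similar in sequence: of the stretches of 50 bases in their transcripts, 4.38% of those of Fcgr2b occur in another gene and 9.58% of those of Fcgr3 occur in Fcgr2b. In the last 500 bases of each transcript, which a 3′ method reads, 1.36% of those of Fcgr2b and 0% of those of Fcgr3, Fcgr1, Fcgr4 and Fcer1g were shared.

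The 250 bases upstream of Fcgr1 and Fcgr4 are shown because, of the 4 receptor genes, these had the levels most alike across classes. Some of those levels rest on few UMIs. Fcgr1 is also known to answer to interferon gamma. The sequences come from RefSeq (GRCm38.p6), a C57BL/6 genome, whereas the mice were Balb/c. Capitals mark matches, on either strand, to the GAS motif (TTCNNNGAA, the gamma interferon activation site), the PU.1 core (GAGGAA, or TTCCTC on the other strand) and the core of the interferon-stimulated response element (GAAA, any 2 bases, GAAA).
Fcgr1, chr3:96293970-96294219, minus strand: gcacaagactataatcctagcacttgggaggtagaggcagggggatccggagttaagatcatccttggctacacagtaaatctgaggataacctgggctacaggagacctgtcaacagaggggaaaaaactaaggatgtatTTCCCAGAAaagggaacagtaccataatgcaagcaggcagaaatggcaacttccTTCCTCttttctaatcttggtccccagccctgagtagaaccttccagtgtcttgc
Fcgr4, chr1:171018676-171018925, plus strand: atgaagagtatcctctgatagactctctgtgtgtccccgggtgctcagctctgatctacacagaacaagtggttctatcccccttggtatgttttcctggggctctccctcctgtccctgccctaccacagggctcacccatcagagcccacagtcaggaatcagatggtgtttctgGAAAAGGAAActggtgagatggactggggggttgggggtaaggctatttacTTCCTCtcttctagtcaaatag
The GAS match of Fcgr1, TTCCCAGAA, lies 109 to 101 bases upstream of the start, and 7.18% of 27025 promoters of this length hold such a match. The Fcgr4 window has GAAAAGGAAA 73 to 64 bases upstream of the start, a match held by 3.04% of promoters. TTCCTC occurs in both windows, and 23.1% of promoters hold it or its reverse complement. Starts are those of RefSeq. That of Fcgr1 is the same in GENCODE, and those of Fcgr4, Fcgr2b, Fcer1g and Fcgr3 lie inside the GENCODE spans above, so the whole windows of Fcgr2b and Fcgr3 fall within the GENCODE genes. The letters of the 3 motifs are not in the RefSeq windows of Fcgr2b and Fcer1g, and no matches overlapped. These are matches of letters, not sites shown to be bound.

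Levels are given as CPM, the UMIs of a gene per 1000000 UMIs of the class, and all intervals are exact 95% intervals that cover counting error only. Capture can differ between genes, so levels are compared between classes and libraries for the same gene.

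Fcgr1, the high-affinity receptor, was highest in monocyte-like cells, at 760 CPM (untreated) and 758 CPM (NAM). Macrophage-like cells had 340 and 370 CPM, and Tgfbi Ccr2 myeloid cells had 288 and 277. Cd209a dendritic-like cells followed with 118 and 138 CPM, and in the untreated library no intervals of neighbors in this order overlapped down to that class. Ctsk Mmp9 myeloid cells were lower, at 38.8 and 19.5 CPM, and cDC1-like cells had only 3 and 6 UMIs of Fcgr1 in all. Within macrophage-like cells, the interferon-high subset stood apart at 730 and 700 CPM, close to the monocyte-like level, while the other subsets described had 315 to 370 CPM. After thinning each cell to 3000 UMIs, 83.5% and 78.4% of interferon-high cells had a UMI of Fcgr1 against 57.2% and 59.5% of all macrophage-like cells, and 3.54% and 3.08% of T-cell-like cells, which should lack the receptor. Without thinning the shares were 95.9% and 97.7% for interferon-high, 85.0% and 89.3% for macrophage-like and 5.56% and 5.38% for T-cell-like cells (median depths of 9920 and 9934 UMIs in macrophage-like and 4500 and 4326 in T-cell-like cells).

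Fcgr3, the low-affinity activating receptor, was highest in macrophage-like cells at 1151 CPM (untreated) and 1255 CPM (NAM). Monocyte-like cells had 674 and 999.6 CPM, and Tgfbi Ccr2 cells had 458 and 787 CPM. These 3 classes kept that order in both libraries with no overlap of their intervals. Cd209a dendritic-like cells had 221 and 321 CPM, Ctsk Mmp9 cells 192 and 160 CPM, and cDC1-like cells 53.8 and 31.8 CPM, the last near the 31.7 and 39.2 CPM of T-cell-like cells. Among the macrophage-like subsets described, Vcam1 Dnase1l3 cells were highest at 1405 and 1484 CPM, and proliferating cells were lowest at 688 and 732 CPM.

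Fcgr4, an activating receptor of myeloid cells, was also highest in macrophage-like cells, at 383 and 508 CPM. Monocyte-like cells had 313 and 390 CPM. Tgfbi Ccr2 cells (113 and 235 CPM) and Cd209a dendritic-like cells (125 and 216 CPM) had overlapping intervals in each library. Vcam1 Dnase1l3 macrophage-like cells had the highest level of any class or subset, 565 CPM in untreated and 734 CPM in NAM, followed by interferon-high cells with 514 and 580 CPM, whereas proliferating cells had 193 and 283 CPM. Ctsk Mmp9 cells, at 43.8 and 40.4 CPM, were below all of these.

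Fcer1g, the shared signaling chain, was detected in nearly every macrophage-like cell: after thinning to 3000 UMIs, 99.9% of macrophage-like cells in the untreated library and 100% in the other had a UMI of it. Its order was monocyte-like cells (4798 and 5165 CPM), macrophage-like cells (3971 and 4399 CPM), Tgfbi Ccr2 cells (2903 and 3295 CPM), Cd209a dendritic-like cells (2172 and 2455 CPM) and Ctsk Mmp9 cells (2007 and 2060 CPM), in both libraries. Ctsk Mmp9 cells, low in Fcgr1 and Fcgr4, thus had Fcer1g at a level near that of Cd209a dendritic-like cells. Of the classes, they also had the most UMIs of Oscar, a receptor of osteoclasts that also pairs with this chain (49.3 and 52.3 CPM, against 0.298 and 0.223 CPM in macrophage-like cells). The second ITAM adaptor of myeloid cells, Tyrobp, had 2783 and 2821 CPM in Ctsk Mmp9 cells and 2515 and 2743 CPM in macrophage-like cells.

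Fcgr2b, the inhibitory receptor, was highest in macrophage-like cells at 947 and 1117 CPM. Monocyte-like cells (555 and 694 CPM) and Tgfbi Ccr2 cells (478 and 738 CPM) came next with overlapping intervals and in opposite order in the 2 libraries. Cd209a dendritic-like cells had 390 and 396 CPM, Ctsk Mmp9 cells 207 and 186 CPM, cDC1-like cells 145 and 112 CPM and mature dendritic-like cells 108 and 196 CPM. Of the macrophage-like subsets described, Vcam1 Dnase1l3 cells were highest, with 1242 and 1322 CPM, and proliferating cells were lowest, with 635 and 790 CPM.

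**Figure D1:**
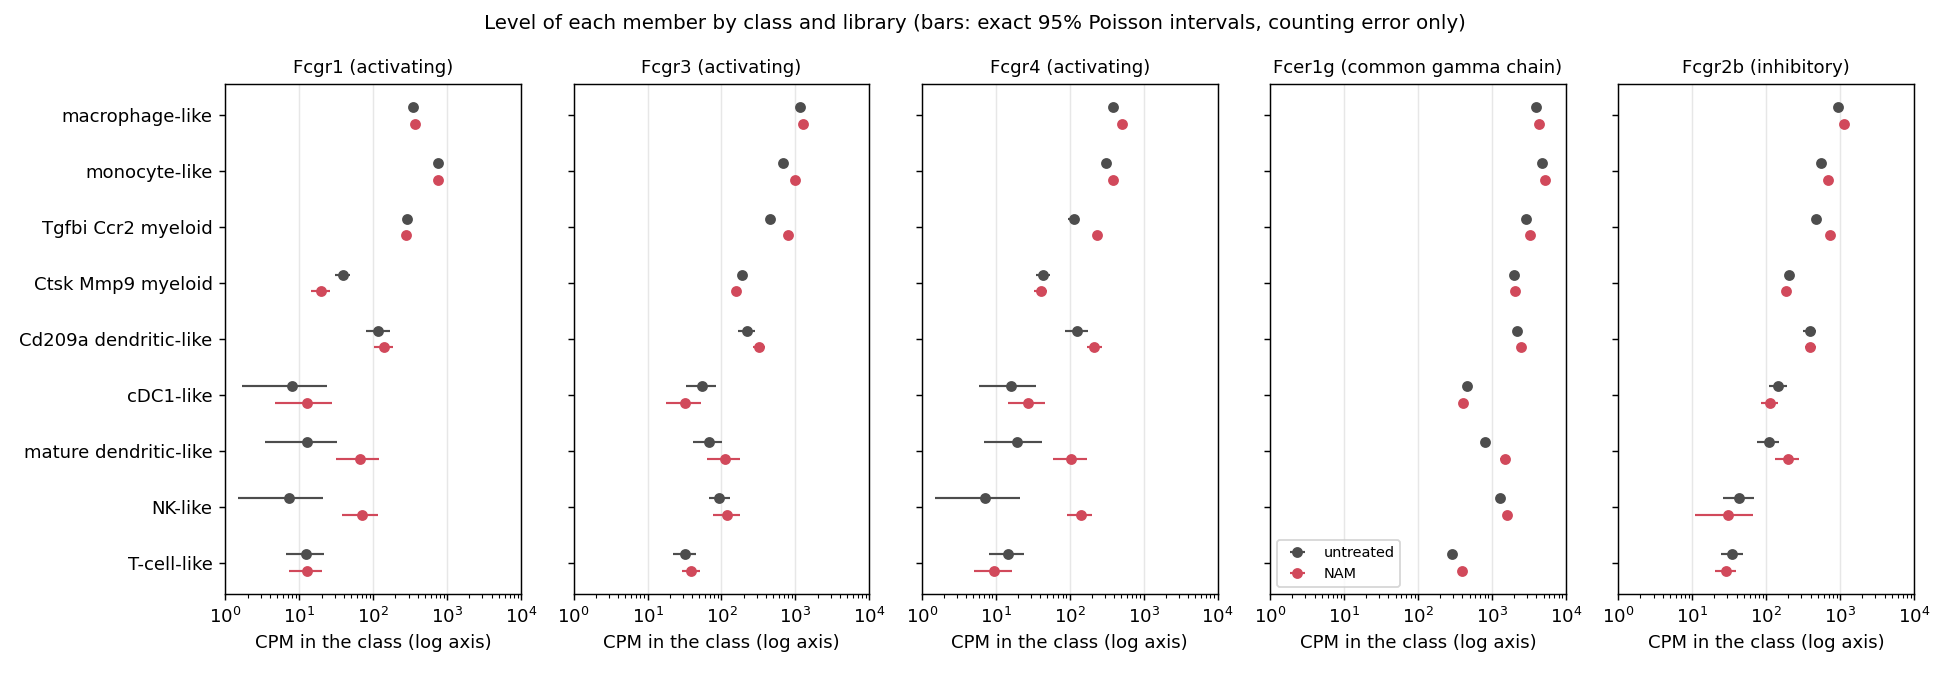
Level of each gene (CPM, log axis) in 9 classes, with 1 point per library (grey, untreated; red, NAM) and exact 95% Poisson intervals. Fcgr1 and Fcer1g peak in monocyte-like cells (758 to 760 and 4798 to 5165 CPM), the other 3 genes in macrophage-like cells, and the NK-like and mature dendritic-like points rest on few UMIs.

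In macrophage-like cells all 5 genes were somewhat higher in the NAM library, and Fcgr4 had the largest difference. Fcgr4 had 7723 UMIs (383 CPM) in the untreated and 11392 UMIs (508 CPM) in the NAM library, a log2 ratio of 0.41 (0.37 to 0.45). Fcgr2b followed at 0.24 (0.21 to 0.26), then Fcer1g at 0.15 (0.13 to 0.16), Fcgr1 at 0.12 (0.08 to 0.17) and Fcgr3 at 0.12 (0.10 to 0.15). Fcgr4 was thus 1 of 5 members that were higher by 1.2-fold or more, in a class in which 7.06% of 9732 genes (those with at least 100 UMIs) were higher by that much and 17.2% lower. At 1.5-fold, 0 of 5 members passed, beside 0.997% of genes. The median cell had 3 UMIs of Fcgr4 in untreated and 4 in NAM, and after thinning 56.6% (54.3 to 58.8) and 64.7% (62.7 to 66.8) of cells had at least 1 (81.1% and 86.6% without thinning). The median log2 ratio of all genes in the class was -0.03. The 8 of 8 macrophage markers detected summed to 36705 CPM in untreated and 37125 CPM in NAM cells, and the C1q genes among them to 17295 and 19047 CPM. Marker lists of other cells also differed in this class, at 341 and 475 CPM for Cd209a dendritic cells, 238 and 305 CPM for mature dendritic cells and 797 and 974 CPM for the Tgfbi myeloid subset, all higher in the NAM library, and at 237 and 175 CPM for the osteoclast-like subset, which was lower. Their part in the receptor values was not tested.

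Fcgr4 was higher in the NAM library in each macrophage-like subset described, as gated. The log2 ratio was 0.56 (0.40 to 0.71) in proliferating cells, 0.51 (0.45 to 0.57) in the cells of no named subset, 0.38 (0.30 to 0.45) in Vcam1 Dnase1l3 cells and 0.18 (0.01 to 0.34) in interferon-high cells. The proliferating value went to -0.39 when cells were thinned to 3000 UMIs before gating. With the subset shares of the untreated library applied to both libraries, an alternative chosen after seeing the data, the class value of Fcgr4 was 0.44, against 0.41 as counted. The log2 ratio of Fcgr2b was 0.32 (0.23 to 0.40) in proliferating cells and 0.09 (0.04 to 0.14) in Vcam1 Dnase1l3 cells. Fcgr1 was higher in the NAM library in Vcam1 Dnase1l3 cells (0.20) and in the cells of no named subset (0.22). It was close to equal in interferon-high cells (-0.06, -0.21 to 0.08) and in proliferating cells (-0.0015, -0.13 to 0.12). The differences between subsets were not tested.

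In monocyte-like cells, Fcgr3 showed the largest difference. It had 635 UMIs (674 CPM) in the untreated and 916 UMIs (999.6 CPM) in the NAM library, a log2 ratio of 0.57 (0.42 to 0.72), and after thinning 75.5% (67.8 to 82.1) and 90.7% (85.2 to 94.7) of cells had a UMI (89.4% and 95.1% without thinning). Fcgr2b and Fcgr4 had log2 ratios of 0.32 (0.15 to 0.49) and 0.32 (0.09 to 0.54), the latter 0.0285 with cells thinned before gating. Fcer1g had 0.11 (0.05 to 0.17), and Fcgr1 was level at 760 and 758 CPM (-0.0024, with an interval of -0.16 to 0.15). So 3 of 5 members were higher by 1.2-fold or more, beside 18.8% of 2272 genes in this class, and at 1.5-fold 0 of 5, beside 3.87% of genes. The gate for monocyte-like cells allows fewer than 10 UMIs of the C1q genes. The 8 macrophage markers summed to 5598 and 5699 CPM and the C1q genes to 440 and 453 CPM. Other marker lists differed more in this class. Mature dendritic markers stood at 875 CPM in untreated and 1763 CPM in NAM cells, and Cd209a dendritic markers at 386 and 531 CPM. NK markers were lower in the NAM library, at 96.6 and 18.6 CPM. Their part in the receptor values was not tested. In the 76 untreated and 90 NAM cells with fewer than 3 UMIs of C1q genes, an alternative chosen after seeing the data, the log2 ratio of Fcgr3 was lower, at 0.24, that of Fcgr4 was 0.23, Fcgr2b turned to -0.20, and 0 members passed 1.2-fold.

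Tgfbi Ccr2 myeloid cells had higher Fcgr4, Fcgr3 and Fcgr2b in the NAM library. Fcgr4 went from 113 CPM (143 UMIs) to 235 CPM (247 UMIs), a log2 ratio of 1.06 (0.75 to 1.36), Fcgr3 had 0.78 (0.63 to 0.94), Fcgr2b 0.63 (0.47 to 0.78), Fcer1g 0.18 (0.12 to 0.25) and Fcgr1 -0.05 (-0.28 to 0.17). These are 3 of 5 members past 1.2-fold, beside 15.2% of 2915 genes. With cells thinned before gating the values were 0.88 for Fcgr4, 0.40 for Fcgr3, 0.29 for Fcgr2b, -0.10 for Fcer1g and -0.62 for Fcgr1. With classes from the highest marker score Fcgr4 had 0.59 and Fcgr3 0.39. That score put 495 untreated and 580 NAM cells in this class, of which only 80 and 73 were in the gate. C1q genes stood at 807 CPM in untreated and 1144 CPM in NAM cells of this class and the 8 macrophage markers at 5834 and 6761 CPM, both higher in the NAM library as the receptors were, and their part was not tested. Only 20 untreated and 17 NAM cells of the class had fewer than 3 UMIs of C1q genes, and among those Fcgr4 had -0.30, Fcgr1 -0.97, Fcgr3 0.48 and Fcgr2b 0.73.

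Ctsk Mmp9 myeloid cells, named by genes of bone-resorbing cells, had lower Fcgr1 in the NAM library. It had 78 UMIs (38.8 CPM, 30.7 to 48.5) in 115 untreated cells and 44 UMIs (19.5 CPM, 14.2 to 26.2) in 139 NAM cells, a log2 ratio of -0.99 (-1.56 to -0.44), and of -0.28 with classes taken from the highest marker score. Fcgr3 had -0.26 (-0.47 to -0.05), just past the 1.2-fold line and at 0.18 with the score classes, and Fcgr2b, Fcgr4 and Fcer1g had -0.15, -0.12 and 0.04. The 2 of 5 members lower by 1.2-fold or more stand beside 17.0% of 4350 genes. The 8 macrophage markers were lower in the NAM cells of this class too, at 4877 CPM against 6966, and their part was not tested.

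**Figure D2:**
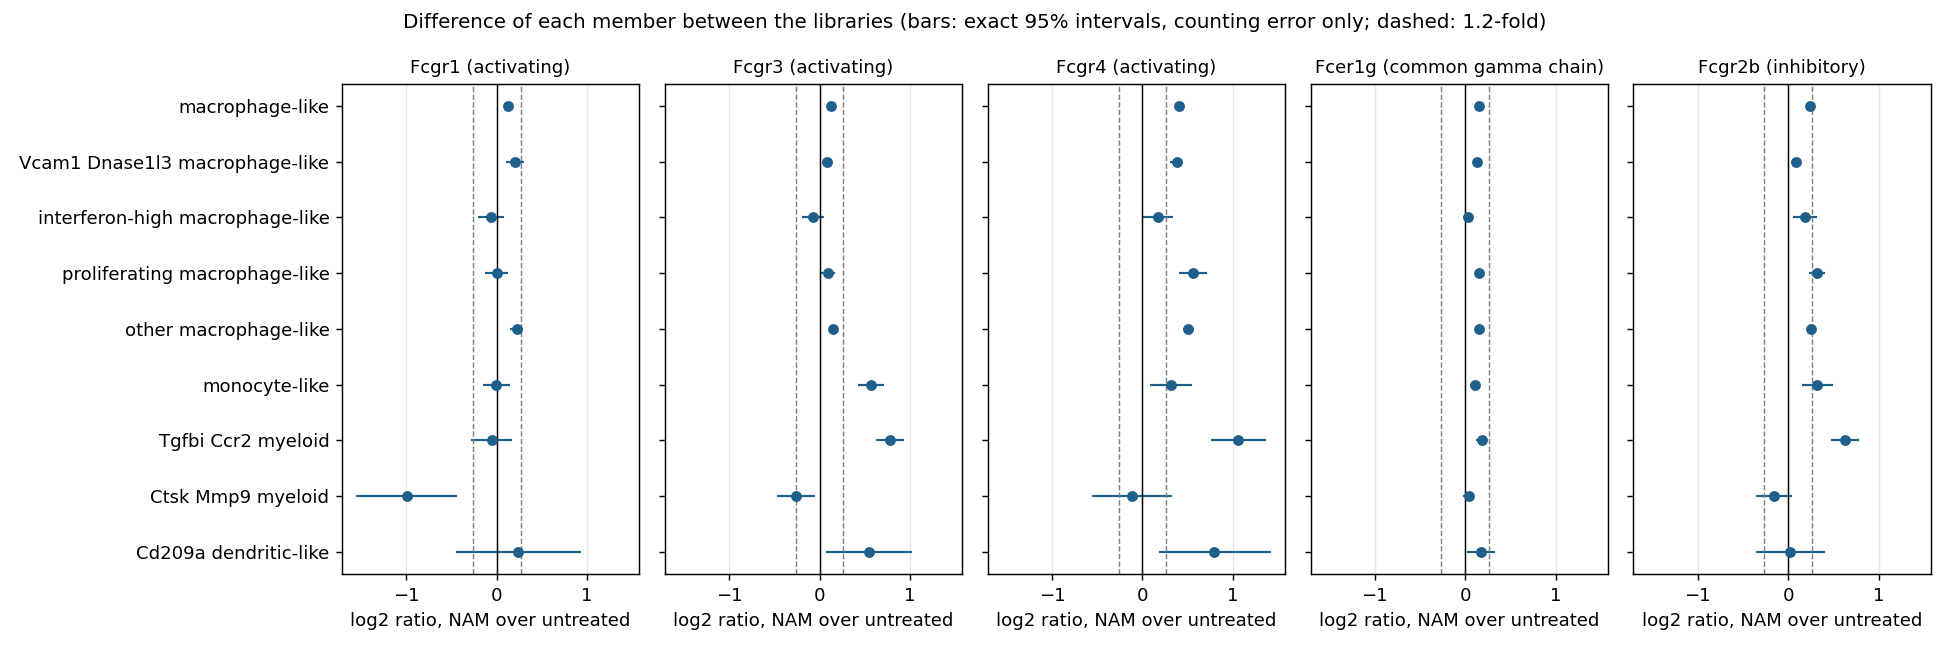
Log2 ratio of CPM, NAM over untreated, of each gene in the macrophage-like cells, 4 subsets and 4 further classes, with exact 95% intervals for counting error and dashed lines at 1.2-fold. Fcgr4 lies above 0 in every macrophage-like subset shown (0.18 to 0.56; -0.39 in proliferating cells if thinned before gating), the member farthest to the right is Fcgr3 in monocyte-like cells (0.57) and Fcgr4 in Tgfbi Ccr2 cells (1.06), and Ctsk Mmp9 cells lie below 0 for Fcgr1.

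Dendritic classes were small. In Cd209a dendritic-like cells Fcgr4 had 34 UMIs (125 CPM) and 72 UMIs (216 CPM), a log2 ratio of 0.79 (0.18 to 1.42), and Fcgr3 had 60 and 107 UMIs (0.54, 0.07 to 1.02). Both passed 1.2-fold, of 4 members that reached 100 UMIs there, beside 21.1% of 830 genes. Fcgr1 had 32 and 46 UMIs, too few for this count. C1q genes were lower in the NAM cells of this class, 462 CPM against 812, and the 8 macrophage markers stood at 1744 against 2716 CPM. In cDC1-like cells Fcgr2b had 54 and 53 UMIs (145 and 112 CPM), Fcgr3 20 and 15 and Fcgr4 6 and 13. After thinning, 45.8% and 12.5% of these cells had a UMI of Fcgr2b, against 12.6% and 9.23% of T-cell-like cells (75.0%, 68.8%, 16.2% and 13.1% without thinning), so in the NAM library the thinned share was near that background. All 5 intervals of the log2 ratio held 0 in this class. For each UMI of C1q genes, which can reach other droplets as free RNA, cDC1-like cells had 0.353 and 0.323 UMIs of Fcgr2b. Macrophage-like cells had 0.0548 and 0.0587. For Fcgr1 the values were 0.0196 and 0.0366 against 0.0196 and 0.0194. On this scale monocyte-like cells had 1.26 and 1.53 UMIs of Fcgr2b, and RNA from such cells was not tested. Mature dendritic-like cells (28 and 23) had 6 and 16 UMIs of Fcgr4 and 34 and 30 of Fcgr2b. In the NAM library, 10 of their 17 UMIs of Fcgr3 and 12 of their 30 UMIs of Fcgr2b came from a single cell each, so values of this class are not read as a difference.

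NK-like cells carried Fcer1g and Fcgr3, and little of the other members. Fcer1g had 1305 CPM (1197 to 1419) in the untreated and 1595 CPM (1425 to 1780) in the NAM library, against 290 and 392 CPM in T-cell-like cells, and 91.3% and 95.1% of NK-like cells had a UMI after thinning, against 36.4% and 49.6% of T-cell-like cells (98.6%, 100%, 51.0% and 62.7% without thinning). Fcgr3 had 94.1 and 120 CPM, against 31.7 and 39.2 CPM in T-cell-like cells, and 24.6% and 22.0% of NK-like cells against 9.09% and 9.23% of T-cell-like cells had a UMI after thinning (36.2%, 34.1%, 14.6% and 13.1% without thinning). The median depths were 5251 and 4353 UMIs in NK-like cells. The direction of Fcgr3 between the libraries was not stable in NK-like cells (log2 ratio 0.36, and -0.36 with cells thinned before gating). Fcgr1 and Fcgr4 had 3 UMIs each in 69 untreated cells. In the NAM library Fcgr4 had 28 UMIs, of which 23 lay in 1 cell, and Fcgr1 had 14, of which 11 lay in that cell, which also held 15, 23 and 26 UMIs of C1qa, C1qb and C1qc. Without cells with 10 or more UMIs of C1q genes, an alternative chosen after seeing the data that leaves out 4 untreated cells and 1 NAM cell, Fcgr4 had 3 and 5 UMIs, Fcgr1 3 and 3, Fcgr3 93.4 and 88.2 CPM and Fcer1g 1273 and 1531 CPM.

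C1q UMIs give a scale for macrophage RNA in other droplets. Per UMI of C1q genes, T-cell-like cells had 0.0721 and 0.0879 UMIs of Fcgr3 and 0.0786 and 0.0647 of Fcgr2b, and macrophage-like cells had 0.0666 and 0.0659 of Fcgr3 and 0.0548 and 0.0587 of Fcgr2b. NK-like cells had 0.192 and 0.159 UMIs of Fcgr3 per UMI of C1q genes, above the ratio of macrophage-like cells in each library. Their Fcgr2b stood at 0.0887 and 0.0397. Monocyte-like cells had 1.53 and 2.21 of Fcgr3, and Tgfbi Ccr2 cells 0.568 and 0.688. The scale therefore covers macrophage RNA only, and RNA from those other cells was not tested. For Fcer1g the ratio was 2.67 and 2.11 in NK-like cells, 0.657 and 0.879 in T-cell-like cells and 0.230 and 0.231 in macrophage-like cells.

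The ratio of activating receptors to the inhibitory receptor is given as the UMIs of Fcgr1, Fcgr3 and Fcgr4 per UMI of Fcgr2b. It was 1.98 (1.94 to 2.01) in untreated and 1.91 (1.88 to 1.94) in NAM macrophage-like cells. Monocyte-like cells had 3.15 (2.85 to 3.48) and 3.09 (2.83 to 3.39), and interferon-high macrophage-like cells had 2.97 (2.76 to 3.20) and 2.60 (2.41 to 2.81). Tgfbi Ccr2 cells had 1.80 (1.63 to 1.99) and 1.76 (1.61 to 1.92), and Ctsk Mmp9 cells 1.33 (1.17 to 1.51) and 1.18 (1.04 to 1.35). In Cd209a dendritic-like cells it was 1.19 (0.91 to 1.55) and 1.71 (1.37 to 2.13), and in cDC1-like cells 0.54 (0.33 to 0.86) and 0.64 (0.40 to 1.01). Mature dendritic-like cells had 0.91 (0.54 to 1.53) and 1.43 (0.88 to 2.37). In T-cell-like cells the ratio was 1.69 (1.10 to 2.63), then 2.13 (1.44 to 3.20). The NK-like class had 45 activating UMIs and 18 of Fcgr2b in the untreated library (ratio interval 1.42 to 4.59) and 66 and 6 in the NAM library (4.79 to 31.05), a 4.4-fold higher ratio with most UMIs of Fcgr4 and Fcgr1 in the 1 cell described above, so it is not read as a difference.

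Between the libraries the ratio was close in monocyte-like cells (0.98-fold, NAM over untreated) and Tgfbi Ccr2 cells (0.98-fold), and in both classes Fcgr2b was higher in the NAM library together with Fcgr3 and Fcgr4. In monocyte-like cells with fewer than 3 UMIs of C1q genes it was higher in the NAM library, 3.81 against 3.02, and in Tgfbi Ccr2 cells of that kind it was lower, 1.49 against 2.505. In macrophage-like cells it was 0.97-fold. Among the subsets, it was lower in the NAM library in proliferating cells (1.94 and 1.73, intervals 1.83 to 2.05 and 1.64 to 1.82) and in interferon-high cells, and slightly higher in Vcam1 Dnase1l3 cells (1.84 and 1.95, 1.78 to 1.90 and 1.89 to 2.01). Fcgr4 alone per UMI of Fcgr2b was higher in NAM macrophage-like cells, 0.404 (0.394 to 0.415) against 0.455 (0.445 to 0.465), while Fcgr3 per UMI of Fcgr2b was lower, 1.22 (1.19 to 1.24) against 1.12 (1.10 to 1.14), and so was Fcgr1, 0.359 against 0.331.

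**Figure D3:**
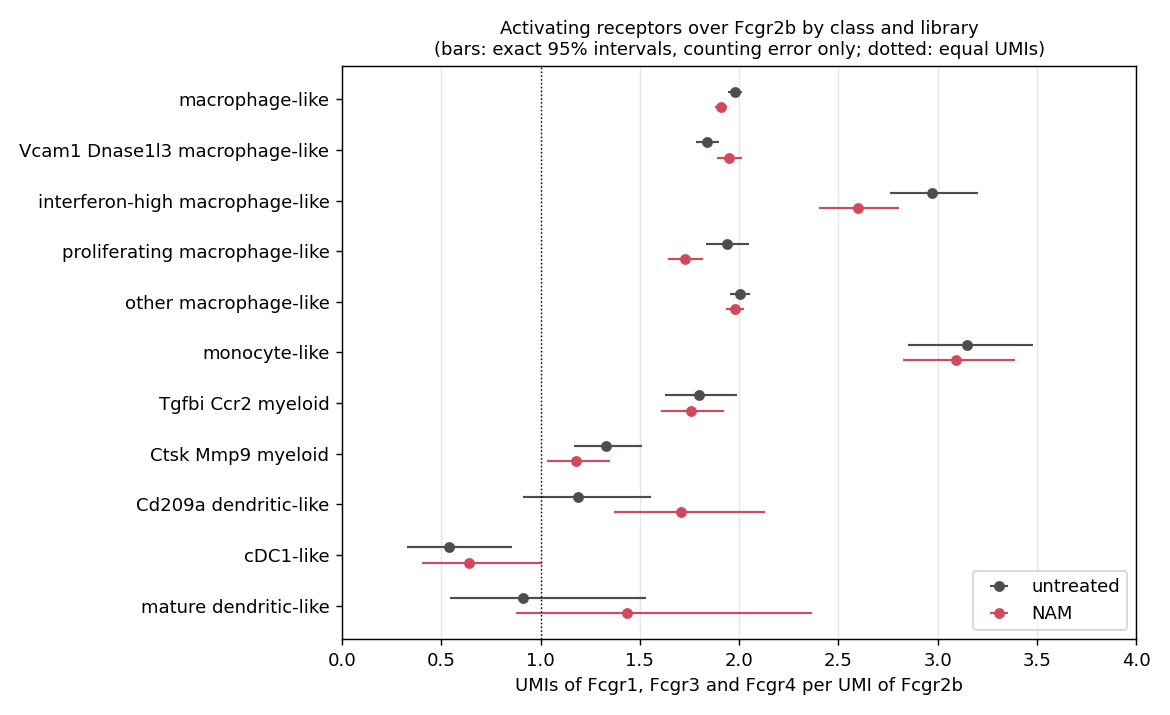
UMIs of Fcgr1, Fcgr3 and Fcgr4 per UMI of Fcgr2b in macrophage-like cells, their subsets, monocyte-like and other myeloid classes (grey, untreated; red, NAM), with exact 95% intervals and a dotted line at equal UMIs. Monocyte-like and interferon-high cells lie between 2.60 and 3.15, the other macrophage-like subsets shown between 1.73 and 2.00, and cDC1-like cells below 1.

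Monocyte-like cells had the largest part of Fcgr1 of any class. It made up 716 of their 2169 receptor UMIs in the untreated library and 26.7% (25.0 to 28.4) in the NAM library, against 12.0% and 11.4% in macrophage-like cells and 23.3% and 21.7% in interferon-high cells. Without Fcgr1, the ratio to Fcgr2b was 1.78 and 2.00 in monocyte-like cells and 1.62 and 1.58 in macrophage-like cells. The share of Fcgr4 in macrophage-like cells was 13.6% (13.3 to 13.9) in the untreated and 15.6% (15.4 to 15.9) in the NAM library, and the share of Fcgr3 went from 40.8% (40.4 to 41.2) to 38.6% (38.3 to 39.0). The share of Fcgr2b was 33.6% and 34.4% in macrophage-like cells, 24.1% and 24.4% in monocyte-like cells and 65.1% and 60.9% in cDC1-like cells.

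**Figure D4:**
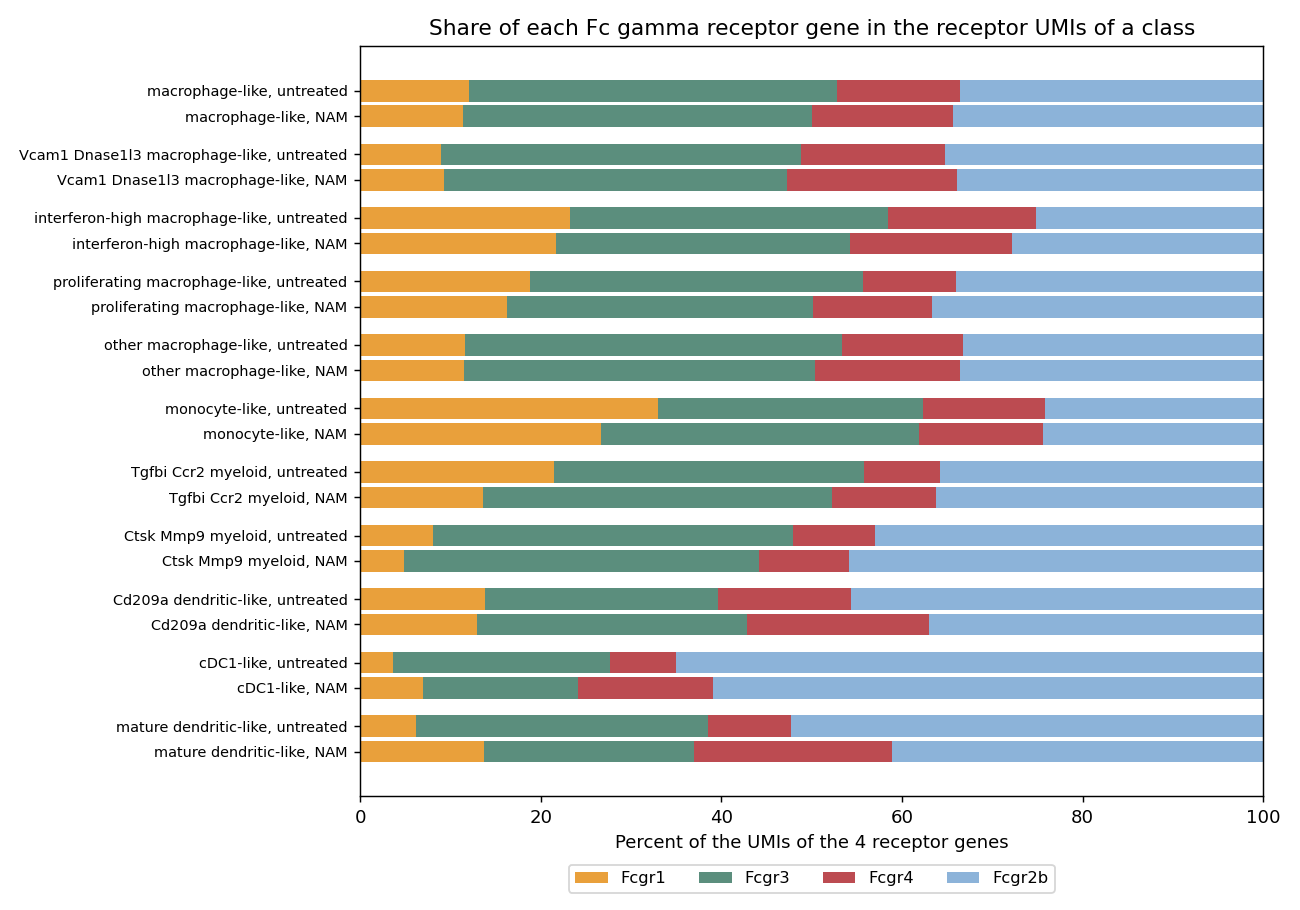
Percent of the UMIs of the 4 receptor genes that belong to each gene, with 1 bar per class and library. Fcgr1 is widest in monocyte-like cells (716 of 2169 UMIs and 26.7%), Fcgr2b in cDC1-like cells (65.1% and 60.9%), and Fcgr3 takes 40.8% and 38.6% in macrophage-like cells.

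UMIs of activating receptors and of Fcgr2b were counted in the same droplets. After thinning to 3000 UMIs, 80.7% (78.8 to 82.4) of macrophage-like cells in the untreated and 86.7% (85.1 to 88.1) in the NAM library had a UMI of an activating receptor and of Fcgr2b, and 15.8% and 10.8% had an activating receptor without Fcgr2b. Without thinning, 95.9% and 98.3% had both. In T-cell-like cells, taken as the background, 3.54% and 1.15% had both after thinning and 5.56% and 3.08% without. In monocyte-like cells 65.6% (57.4 to 73.1) and 68.5% (60.8 to 75.6) had both after thinning and 28.5% and 28.4% an activating receptor alone (76.2% and 82.1% had both without thinning). All 3 activating receptors were seen together in 32.0% (29.9 to 34.1) and 38.7% (36.6 to 40.8) of macrophage-like cells, and in 56 of 97 and 44 of 88 interferon-high cells (69.7%, 78.5%, 88.7% and 87.5% without thinning). A cell without a UMI is not shown to lack the receptor at this depth.

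The signaling partners of these receptors lay on both sides of equal levels. For each list in macrophage-like cells, the shares over all genes to set beside its counts are 7.06% higher and 17.2% lower by 1.2-fold or more. Of 8 kinases of Fc receptor signaling, 7 had 100 or more UMIs in macrophage-like cells, and 0 were higher and 3 lower by 1.2-fold or more, with a median log2 ratio of -0.21 beside -0.03 over all genes in the class. Those lower were Src (-0.72), Fyn (-0.36) and Syk, the kinase that docks on Fcer1g, which had 51.1 and 40.1 CPM (-0.35, -0.48 to -0.22). Syk was also lower in NAM monocyte-like cells, with 87 and 42 UMIs (-1.01, -1.58 to -0.46), where it was 1 of 4 kinases with enough UMIs, beside 21.8% of genes lower in that class. Among 17 of 18 genes downstream of Syk in macrophage-like cells, 1 was higher, the signaling adaptor Card9 (0.38, 150 and 217 UMIs), and 1 lower, Gab2 (-0.30), and their median of -0.03 equaled that of all genes.

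On the inhibitory side, 6 of 6 phosphatases and docking proteins had enough UMIs in macrophage-like cells. None was higher by 1.2-fold and 1 was lower, Inppl1 (-0.49). Inpp5d, the phosphatase bound by Fcgr2b, had 71.2 and 61.7 CPM (-0.21), and Ptpn6, which other ITIM receptors use, 237 and 238 CPM. Of 10 other ITIM receptors, 3 were higher in the NAM library (7.06% of all genes were), namely Cd300lf (0.37), Clec12a (0.28) and Lair1 (0.27), and 0 were lower, with a median of 0.13. The lowest was Sirpa (-0.20), the receptor for Cd47. In monocyte-like cells 2 of 9 were higher, beside 18.8% of genes in that class, Cd300lf (0.57) and Pirb (0.52).

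Of other receptors that pair with Fcer1g, 4 had enough UMIs in monocyte-like cells, and 3 were lower by 1.2-fold or more in the NAM library, beside 21.8% of genes in the class. They were Clec4e (934 and 518 CPM, -0.85), Clec4n (-0.42) and Clec4d (-0.31), lectin receptors for microbial or damaged-cell ligands, while Pira2 had 0.15. In macrophage-like cells 1 of 4 was lower, Clec4e (-0.51). Clec5a, which was in the same list but is known to pair with Tyrobp and Hcst and was set apart after its values were seen, had -0.47 in monocyte-like and 0.27 in macrophage-like cells. The log2 ratio of Tyrobp was 0.13 in macrophage-like cells, against 0.29 in monocyte-like cells.

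Among other receptors for immunoglobulins and Fc receptor-like genes, 3 of 10 had 100 or more UMIs in macrophage-like cells. Fcrls, an Fc receptor-like scavenger gene of macrophages, had 3039 UMIs (151 CPM) in the untreated and 1356 (60.5 CPM) in the NAM library, a log2 ratio of -1.32 (-1.41 to -1.22). It was lower in the 4 subsets described, with -1.60 in Vcam1 Dnase1l3 cells, -1.35 in proliferating cells and -1.21 in interferon-high cells, opposite in direction to Fcgr4. Fcgrt, the neonatal receptor that recycles IgG, had 366 and 313 CPM (-0.23), and Trim21, which binds antibody in the cytosol, -0.01. The immunoglobulin genes themselves were not analysed here.

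Of 7 genes of interferon gamma signaling, the pathway known to induce Fcgr1, 2 were higher by 1.2-fold or more in NAM macrophage-like cells and 1 lower, beside 7.06% and 17.2% of all genes. Socs1, its feedback inhibitor, had 38.3 and 70.6 CPM (0.88), the transcription factor Irf1 75.6 and 134 CPM (0.83), and the kinase Jak2 18.9 and 11.1 CPM (-0.77). In monocyte-like cells 6 of these genes had enough UMIs. Of them 2 were higher, Socs1 (1.22) and Irf1 (0.72), and 1 was lower, Ifngr2 (-0.31), beside 18.8% and 21.8% of genes in that class. Fcgr1 was level there. A link of these genes to Fcgr1 was not tested.

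Across 26 points, each a class or subset in 1 library, the members followed one another. Pearson's r of log2(CPM + 1) was 0.95 between Fcgr1 and Fcgr4, 0.96 between Fcgr3 and Fcer1g and 0.85 between Fcgr1 and Fcgr2b. Fcgr4 was the third most similar gene to Fcgr1, after Ctsc (0.96), a lysosomal protease, and Klra2 (0.95), and Fcgr1 was the most similar gene to Fcgr4, before Cybb (0.93), the catalytic part of the phagocyte oxidase. Fcgr3 was closest to Adgre1 (0.96), which encodes F4/80, and Fcer1g to Fcgr3 (0.96) and Rin2 (0.95). The genes most like Fcgr2b were Lyz2 (0.97), Ctss (0.97) and Cd302 (0.97). Some points rest on few UMIs of these genes, such as 3 each of Fcgr1 and Fcgr4 in untreated NK-like cells. In NAM NK-like cells 11 of 14 UMIs of Fcgr1 and 23 of 28 of Fcgr4 lay in 1 cell. The points also share libraries and depth, so the values are a description.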

How the data were processed

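The authors deposited raw UMI counts for every gene in each cell. They came from version 2 of the 10x 3′ chemistry and were aligned by Cell Ranger 2.1.0 to mm10, a C57BL/6 genome. The annotation version is not given in the sources used here. The members, gene lists and classes were chosen with earlier results of these data known. The UMI minimums of the gates were set on the markers after they were seen, never on the members. Of 106 markers, 3 had no symbol in the files. No doublet caller was run. UMIs were summed per class and library (cells are not replicates) and divided by the class total. The 95% intervals were exact: Clopper-Pearson on shares, Poisson on CPM and the conditional binomial on ratios. A gene was counted as higher or lower from a 1.2-fold difference with 100 or more UMIs in the class. From each list the text names the highest and lowest gene and Tyrobp, Syk, Inpp5d, Ptpn6, Fcgrt and Irf1, by rule. A macrophage-like subset and some list genes, which stay in the counts and class totals, are not reported here. Other list genes past the fold, and Oscar, were named after their values were seen. GENCODE vM21 gave the positions. Each cell was thinned to 3000 UMIs (seed 11; 0 cells left out) to compare shares. Depth ranged from 3001 to 41658 UMIs per cell. The paper excluded cells with fewer than 1000 genes, fewer than 3000 UMIs or more than 10% mitochondrial genes. Of the cells used here, 0 failed that filter, so shallower cells are not represented. The steps were tested on simulated counts. Python 3.11.15, NumPy 2.4.6, SciPy 1.17.1, pandas 2.3.3 and matplotlib 3.10.9 were used.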

Additional observations from a re-analysis of the deposited data

Results flagged for a closer look

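In Ctsk Mmp9 myeloid cells 2 members were lower in the NAM library with an interval below 0 while the interval lay above 0 in other classes, and in neither case was the difference between classes tested. Fcgr1 had a log2 ratio of -0.99 there, from 78 and 44 UMIs. Classes with an interval above 0 included mature dendritic-like cells, with 4 and 10 UMIs, and NK-like cells, where 11 of 14 NAM UMIs lay in 1 cell. The NK-like counts without cells of 10 or more C1q UMIs were 3 and 3, so nothing is read from the contrast with these classes. Macrophage-like cells also had an interval above 0, at 0.12 (0.08 to 0.17). Fcgr1 was also below 0 in Tgfbi Ccr2 cells (-0.05, interval across 0). Fcgr3 had -0.26 in Ctsk Mmp9 cells, while monocyte-like (0.57), Tgfbi Ccr2 (0.78), Cd209a dendritic-like (0.54) and macrophage-like cells (0.12) were above 0. It was below 0 in cDC1-like cells too (-0.76, interval across 0), and 0.18 in Ctsk Mmp9 cells with classes from the highest marker score.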

How the results depend on the processing

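With 1 library of 3 pooled mice per group, values have no replicate error, and depth limits the dendritic and lymphoid classes to a few UMIs of most members. No paired analysis was possible because each group has 1 library. Under the alternatives, 76 of 80 log2 ratios of members in macrophage-like and monocyte-like cells and 354 of 399 in other classes and subsets kept their direction. Alternatives on C1q UMIs, subset shares and Clec5a were chosen after seeing the data. The cause of the changes below was not tested. In macrophage-like cells the number of members past the fold was 0 at 1.5-fold and 2 with median of ratios scaling, which gave Fcgr2b 0.27, Fcgr3 0.15 and Fcer1g 0.18. Fcer1g had 0.16 with the mean of per-cell CPM and 0.17 with classes from the highest marker score. Thinning before gating gave Fcgr1 0.069 and Fcgr3 0.0755. In monocyte-like cells 0 members passed 1.5-fold and 1 passed 1.2-fold after thinning, which gave Fcgr4 0.0285. Score classes gave Fcgr3 0.41, over 226 untreated and 289 NAM cells, of which 120 and 135 were in the gate. Among cells with under 3 C1q UMIs 0 members passed, Fcgr2b reversed to -0.20, Fcgr3 had 0.24 and Fcer1g 0.0367, and Fcgr4 reversed to -0.30 in Tgfbi Ccr2 cells.

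The activating to inhibitory ratio (untreated, then NAM) was 1.62 and 1.58 in macrophage-like and 1.78 and 2.00 in monocyte-like cells without Fcgr1, and 0.404 and 0.455, then 0.564 and 0.561, with Fcgr4 alone. In macrophage-like cells it was 2.02 and 1.88 after thinning, 1.89 and 1.83 with score classes and 1.93 in the untreated library as the mean of per-cell CPM. In monocyte-like cells it was 3.40 after thinning, 2.74 with score classes and 3.81 under 3 C1q UMIs (3.02 untreated) in the NAM library, and 3.505 in the untreated library with gate minimums doubled.

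Reversals of differences of 1.2-fold or more after thinning were Fcer1g (-0.0231) and Fcgr3 (-0.36) in NK-like cells, Fcgr2b in T-cell-like cells (0.0388), Fcgr3 in mature dendritic-like cells (-0.93) and Fcgr4 in proliferating macrophage-like cells (-0.39). Smaller differences that changed sign there include Fcer1g in Tgfbi Ccr2 (-0.10), interferon-high (-0.089) and cDC1-like cells (0.25), Fcgr3 in proliferating cells (-1.17), Fcgr2b in Cd209a dendritic-like cells (-0.23) and Fcgr1 in T-cell-like (-0.57) and monocyte-like cells (0.0222). With score classes the reversals were Fcgr2b in NK-like (0.71), T-cell-like (0.70) and cDC1-like cells (0.24), Fcgr3 in Ctsk Mmp9 (0.18) and cDC1-like cells (0.0444) and Fcgr4 in T-cell-like cells (0.50). By score there were 155 untreated and 207 NAM cDC1-like cells, of which 24 and 32 were in the gate. For Ctsk Mmp9 cells the numbers were 217 and 248, with 106 and 132 in the gate. With gate minimums doubled, Fcgr3 reversed in NK-like (-0.32) and mature dendritic-like cells (-1.27), and with under 10 C1q UMIs in NK-like cells (-0.0825). Without the 5 cells with most UMIs of the gene in each library, Fcgr2b reversed in cDC1-like (0.0669) and mature dendritic-like cells (-0.0559), and Fcgr3 in NK-like (-0.28), T-cell-like (-0.0597) and cDC1-like cells (0.08).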
